A study of Mus musculus with 12 samples.

Results

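The cytoplasmic ribosomal protein genes encode the protein part of the ribosome that translates nuclear-encoded mRNAs. They were taken by symbol from the mm9 gene annotation: every protein-coding gene named Rpl or Rps followed by a number and an optional letter or x, together with Rplp0, Rplp1, Rplp2 and Rpsa, with the Rps6k kinases, symbols ending in -ps and l-suffixed paralogs left out. Of 22350 protein-coding genes on chromosomes 1 to 19 and X, 76 met the rule, 45 of the large subunit and 31 of the small subunit, and Rpl41 had no protein-coding entry of that symbol. The symbols alone set which genes are members. The data were ChIP-seq reads of 6 histone H3 modifications in C2C12 cells, a clonal mouse myoblast line of the C3H strain at passages 15 to 18 that fuses into multinucleate myotubes in culture. Myoblasts were taken near confluence in 10% serum, and myotubes about 5 days after serum was withdrawn, and were parted from cells that had not fused by a brief trypsin treatment. Each mark was sequenced once in each cell state, which gives 12 libraries, no replicate and no input control, so no difference between the states has a replicate check and no p-value is given.

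The deposited libraries held between 1858771 reads (H3K27ac in myoblasts) and 7033100 reads (H3K36me3 in myoblasts). A read was extended to 150 bp and counted at its midpoint within 1 kb either side of the transcription start site (TSS) or over the gene body, which ran from 1 kb past the TSS to the end of the transcript. A level is given as a fold, the count divided by what the library's mean over the genome would give in a window of that length, and intervals are 95% Poisson intervals that cover counting error only. The mean gave between 1.45 and 5.50 reads per TSS window. The cell-state labels held in marker genes listed with earlier results known: all 10 myotube genes (Myog, Ckm, Acta1 and others) had at least 2-fold more H3K4me3 in the myotube library, their summed H3K4me3 reads going from 53 to 1069, and 5 markers of other lineages such as Ptprc and Epcam had 18 reads in all in each library. Of 8 genes of myoblasts and the cell cycle, 4 had at least 2-fold less H3K4me3 in myotubes.

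Ribosomal proteins are needed in near-equal numbers, so their genes are transcribed at high and similar rates in most cells. Their mRNAs begin with a C followed by a run of pyrimidines, the terminal oligopyrimidine tract through which mTOR and LARP1 adjust translation, and their promoters are short, rich in CpG and often hold sites of ETS-family factors. Trimethylation of H3 lysine 4 (H3K4me3) and acetylation of lysine 27 (H3K27ac) mark active promoters, monomethylation of lysine 4 (H3K4me1) marks enhancers and the flanks of promoters, trimethylation of lysine 27 (H3K27me3) is laid down by Polycomb complexes over silent genes, and trimethylation of lysine 36 (H3K36me3) follows elongating RNA polymerase II through gene bodies.

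The genes were compact and had sequence features that their names did not select. The median transcript spanned 3050 bp of the genome, against 14317.5 bp for all protein-coding genes. Of the 76 genes, 30 (39.5%) held at least 1 small nucleolar RNA (snoRNA) gene on the same strand, 58 snoRNAs in all, against 1.17% of all genes. A C followed by at least 5 pyrimidines lay within 20 bases of the annotated TSS in 42 members (55.3%), in 31.8% of all protein-coding genes and in 30.4% of the 10037 genes whose promoter had an H3K4me3 peak in both cell states. The same tract lay there in 39.5% of mitochondrial ribosomal protein genes and in 52.7% of the protein-coding genes with -ps names. The ETS word CCGGAAG, searched on both strands from 250 bases before to 50 after the TSS, was present in 25 members (32.9%), in 10.9% of all promoters and in 20.6% of promoters with an H3K4me3 peak, and in 36.8% of mitochondrial ribosomal protein genes. The MyoD E-box CAGCTG stood in 4 members (5.26%), against 15.3% of all promoters and 13.8% of those with an H3K4me3 peak. The Myc E-box CACGTG stood in 11 (14.5%), against 7.77% and 10.8%. The Sp1 word GGGCGG was in 39 members (51.3%), above its share of all promoters (44.8%) and below its share of those with a peak (69.0%). TATAAA lay the other way, in 9 members (11.8%), with 13.5% of all promoters and 6.09% of those with a peak. GCTCGC, the word bound by ZBED6, was in 13 (17.1%), against 17.6% and 27.7%, and the YY1 word AAGATGGCG in 3 (3.95%), against 1.93% and 3.83%.

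In 9 members a C followed by at least 5 pyrimidines stood within 2 bases of the annotated TSS (11.8%, against 4.97% of all genes, 5.38% of those with an H3K4me3 peak and 18.2% of those with -ps names), and 5 of these start regions are shown because they hold the element for which these mRNAs are known. Each is 30 bases of the sense strand of mm9, read from the reference genome, with the TSS at the base after the first 15 and the pyrimidines from that C on in capitals. In each of the 5 the unbroken run of pyrimidines begins farther upstream than the capitals, so the C is not the first base of the run. Among the 9, Rps21 and Rps27, which are not shown, had the C as the first base of the run. Rps19 lies at chr7:25669640-25669669 on the plus strand, Rpl32 at chr6:115758751-115758780 on the minus strand, Rps15a at chr7:125258756-125258785 on the minus strand, Rplp1 at chr9:61762331-61762360 on the minus strand and Rpl10 at chrX:71516184-71516213 on the plus strand.

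Rps19: aaccccgtcgttccCTTTCCCCTggctggc

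Rpl32: gcgccgccgccgcctCTTCCTTCTTCCTCg

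Rps15a: caaaccccggcttttCTTTCCacagccacc

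Rplp1: caggcgtatatgatCTTTTCCTCagctgcc

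Rpl10: gcgtgggagcgtctCTTTTCCTCTggcgcg

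For the ETS word, 30 bases of the sense strand of mm9 are shown from 3 members, with the word or its reverse complement in capitals, because this was the searched word whose share among the members stood farthest above its share among all promoters. Rps6 was read at chr4:86503345-86503374 on the minus strand, Rpl11 at chr4:135609285-135609314 on the minus strand and Rps7 at chr12:29320815-29320844 on the minus strand. A match is a description of the letters and not a measured binding site.

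Rps6: gttaatctacgcCCGGAAGtaacgcccctc

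Rpl11: aaggccacggggCCGGAAGtctccctctct

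Rps7: ttttcagaagagCTTCCGGtttccacccac

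Every member carried H3K4me3 at its TSS in both cell states. The median was 46.6-fold over the genome mean in myoblasts (95% interval of the median 42.9 to 54.4) and 41.5-fold in myotubes (37.2 to 48.1). Promoters with an H3K4me3 peak in both states had medians of 32.3-fold and 27.5-fold, and all protein-coding genes of 3.23-fold and 3.10-fold. Set against the reads of the 200 kb around each TSS in place of the genome mean, the members' medians were 24.3-fold and 22.4-fold. The interval of all 76 members lay above the genome mean in both libraries, where 51.8% and 51.6% of all genes did, and all 76 had a deposited H3K4me3 peak within 1 kb in both, against 46.9% and 46.9%. The 45 large subunit and the 31 small subunit genes had the same median in myoblasts, 46.6-fold. The genes of the mitochondrial ribosome, a separate set of 76 members that serves the organelle, had medians of 35.95-fold and 35.5-fold, and 41 proteasome genes had medians of 42.9-fold and 41.9-fold.

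Rps12, a small subunit protein, had the most H3K4me3 of the members in both states, with 217 reads in myoblasts (100-fold, 87.2 to 114) and 262 in myotubes (102-fold, 89.7 to 115). It was followed in myoblasts by Rpl9 with 198 reads (91.3-fold) and in myotubes by Rpl3 with 244 reads (94.6-fold, 83.1 to 107). The intervals of these neighbours overlapped, so their order is not resolved by the counts. Rplp0, the stalk protein often used as a reference transcript, stood low among the members, with 52 reads in myoblasts (23.97-fold) and 50 in myotubes (19.4-fold). The lowest count in both states was at Rpl13a, with 27 reads in myoblasts (12.4-fold) and 15 in myotubes (5.82-fold), still above the genome mean in both.

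Rpl13a, Rpl18 and Rpl24 were the 3 members whose TSS, the start of the transcript with the longest coding sequence, lay more than 1500 bp from the annotated start with the most H3K4me3. At that other start, 7582 bp away, Rpl13a had 138 H3K4me3 reads in myoblasts (63.6-fold) and 130 in myotubes (50.4-fold). Rpl18 went from 28 and 42 reads at the chosen start to 131 and 151 at a start 2700 bp away (60.4-fold and 58.5-fold). Rpl24, whose chosen transcript gave it a body of 34109 bp, had 88 and 84 reads at the chosen start, and 114 and 172 reads at a start 7257 bp away. Its chosen transcript begins 2369 bp past the end of the shorter coding transcript that starts near that other place, and shares no base with it, although another annotated coding transcript spans both. The TSS and body values of Rpl24 therefore need not be those of the transcript that encodes the ribosomal protein. Without Rpl24 the median H3K4me3 was 46.6-fold and 41.9-fold. The low places of Rpl13a and Rpl18 therefore belong to their annotated start rather than to the gene, and their other values at the TSS carry the same limit.

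**Figure D1:**
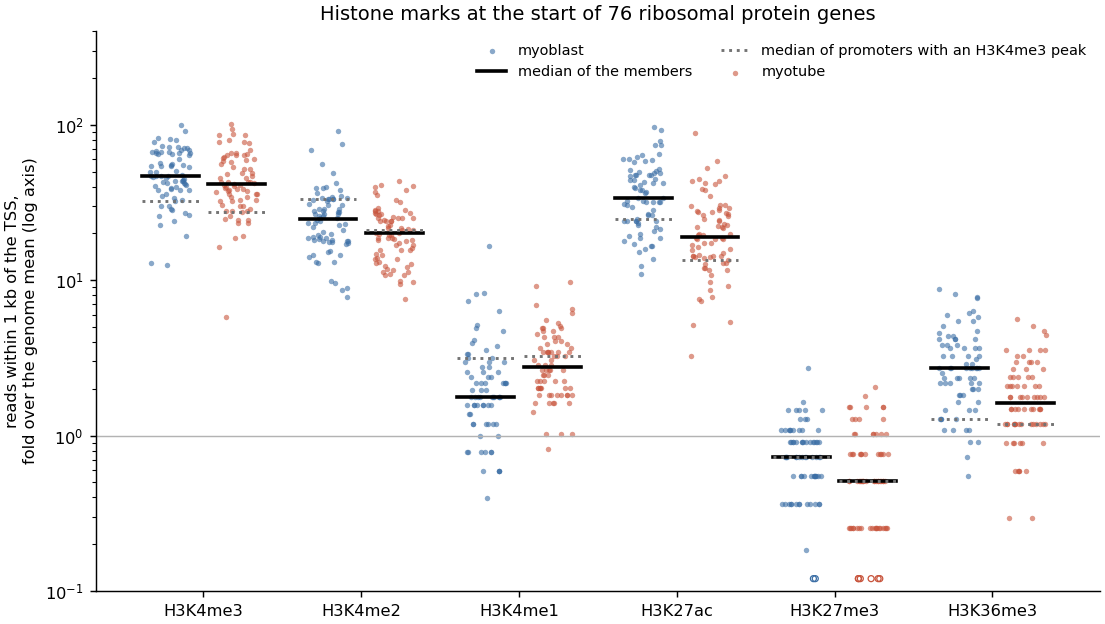
Each point is 1 of the 76 ribosomal protein genes, placed by its reads within 1 kb of the TSS as a fold over the library's genome mean on a log axis, for 6 marks in myoblasts (blue) and myotubes (red); open points at the bottom edge had 0 reads, black bars are the members' medians and dotted grey bars the medians of the 10037 promoters with an H3K4me3 peak in both states. H3K4me3, H3K4me2 and H3K27ac lie above 1 in every member, with H3K4me3 medians of 46.6 and 41.5, whereas the H3K27me3 medians of 0.729 and 0.510 lie below it.

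H3K27ac was likewise above the genome mean at all 76 members in both states, against 49.5% of all genes in myoblasts and 48.3% in myotubes. The median was 33.7-fold in myoblasts (29.6 to 41.95) and 19.1-fold in myotubes (15.96 to 22.995). Promoters with an H3K4me3 peak had 24.8-fold and 13.5-fold. Divided by the reads of the 200 kb around each TSS in place of the genome mean, the members' medians were 16.6-fold and 11.2-fold. Rpl19 was highest in myoblasts, with 141 reads (96.97-fold, 81.6 to 114), and Rpl10a in myotubes, with 326 reads (88.2-fold, 78.9 to 98.3). The lowest in both states was Rps4x, the X-linked copy of a small subunit gene, with 16 reads (11.004-fold) and 12 reads (3.25-fold). Levels of H3K4me3 and H3K27ac went together across the 76 members, with a Spearman rho of 0.628 in myoblasts and 0.559 in myotubes, given as a description since the genes share their libraries and promoter composition.

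The peak lists deposited with the myoblast H3K27ac and H3K27me3 samples did not match their reads. The list deposited with H3K27ac held none of the 76 members and 5.16% of all genes, while the list deposited with H3K27me3 held all 76 and 44.3% of all genes. In myotubes the H3K27ac list held all 76 members, against 40.5% of all genes, and the H3K27me3 list held none, against 1.42%. With the 2 myoblast lists exchanged, the members were in an H3K27ac peak 76 of 76 times and in an H3K27me3 peak 0 times, which is also how their read counts fell. The read counts, not the peak lists, were used for both marks.

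H3K4me2 was above the mean at all 76 members in both states (59.8% and 56.8% of all genes), each with a deposited peak (54.9% and 50.9%), but it was not especially high. Its median was 24.7-fold in myoblasts (19.95 to 27.7), below the 33.4-fold of promoters with an H3K4me3 peak, and 20.03-fold in myotubes (17.7 to 23.9), near their 21.0-fold. Relative to the reads of the 200 kb around each TSS, the members' medians were 9.77-fold and 9.67-fold. Rpl12 was highest in myoblasts with 307 reads (91.4-fold, 81.5 to 102), and Rpl3 in myotubes with 161 reads (43.3-fold, 36.8 to 50.5). Rps4x was lowest in both, with 26 and 28 reads (7.74-fold and 7.53-fold).

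H3K4me1 was sparse at the start sites. The median was 1.78-fold in myoblasts (1.58 to 2.17) and 2.75-fold in myotubes (2.24 to 3.46). Promoters with an H3K4me3 peak had 3.16-fold and 3.26-fold. Relative to the reads of the 200 kb around each TSS, the members' medians were 1.01-fold and 1.67-fold. The interval lay above the mean in 34 members in myoblasts and 51 in myotubes, against 47.4% and 45.7% of all genes, and 29 and 13 members had a deposited peak, against 28.6% and 10.6%. Rpl10a was highest in both states, with 84 reads (16.6-fold) and 48 reads (9.78-fold). The lowest was Rpl9 in myoblasts with 2 reads (0.395-fold) and Rps23 in myotubes with 4 reads (0.815-fold), and Rpl9 had nearly the most H3K4me3.

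H3K27me3 was low at the members. Its median was 0.729-fold in myoblasts (0.729 to 0.911) and 0.510-fold in myotubes (0.510 to 0.765), equal to the medians of promoters with an H3K4me3 peak. The interval lay above the mean in 1 member in myoblasts and 0 in myotubes, against 18.3% and 12.7% of all genes. The exception was Rpl10, a large subunit gene on chromosome X, with 15 reads in myoblasts (2.73-fold, 1.53 to 4.51) and 7 in myotubes (1.78-fold, 0.717 to 3.68). In myotubes the highest was Rps4x, with 8 reads (2.04-fold). At this depth, with 5.49 and 3.92 reads per window at the mean, 2 members had 0 reads in myoblasts (Rpl29 and Rpl37a) and 6 in myotubes, where the upper 95% limit of a count of 0 is 0.672-fold in myoblasts and 0.940-fold in myotubes.

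H3K4me3, H3K27ac and H3K36me3 lay mainly downstream of the TSS. In the mean profile of the 76 members, H3K4me3 reached 88.2-fold at 325 bp past the TSS in myoblasts and 75.8-fold at 675 bp in myotubes, against 60.9-fold and 46.8-fold, both at 325 bp, for promoters with an H3K4me3 peak. The kilobase after the TSS held more H3K4me3 reads than the kilobase before it in 73 of 76 members in myoblasts and 68 in myotubes. The median ratio of the downstream to the upstream kilobase was 3.49 (2.51 to 4.53) and 2.75 (1.97 to 3.87), against 2.28 and 1.87 at promoters with an H3K4me3 peak. H3K27ac reached 103-fold at 275 bp in myoblasts and 46.0-fold at 225 bp in myotubes. Its downstream kilobase held 3.65 times the upstream reads in myoblasts and 2.12 times in myotubes, and that of H3K36me3 3.50 and 2.00 times. For H3K4me2 the median ratio was 1.46 and 1.40, against 1.58 and 1.40 at promoters with an H3K4me3 peak. For H3K27me3 it was 1 in both states, with more reads downstream in 35 and 27 members. H3K4me1 had more reads downstream in 15 members in myoblasts and 31 in myotubes, with median ratios of 0.60 and 0.882. In myoblasts it had 1.005-fold at 75 bp past the TSS and a maximum of 9.08-fold at 1775 bp. In myotubes H3K4me1 was 2.18-fold at 75 bp and 5.94-fold at its maximum at 1725 bp.

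**Figure D2:**
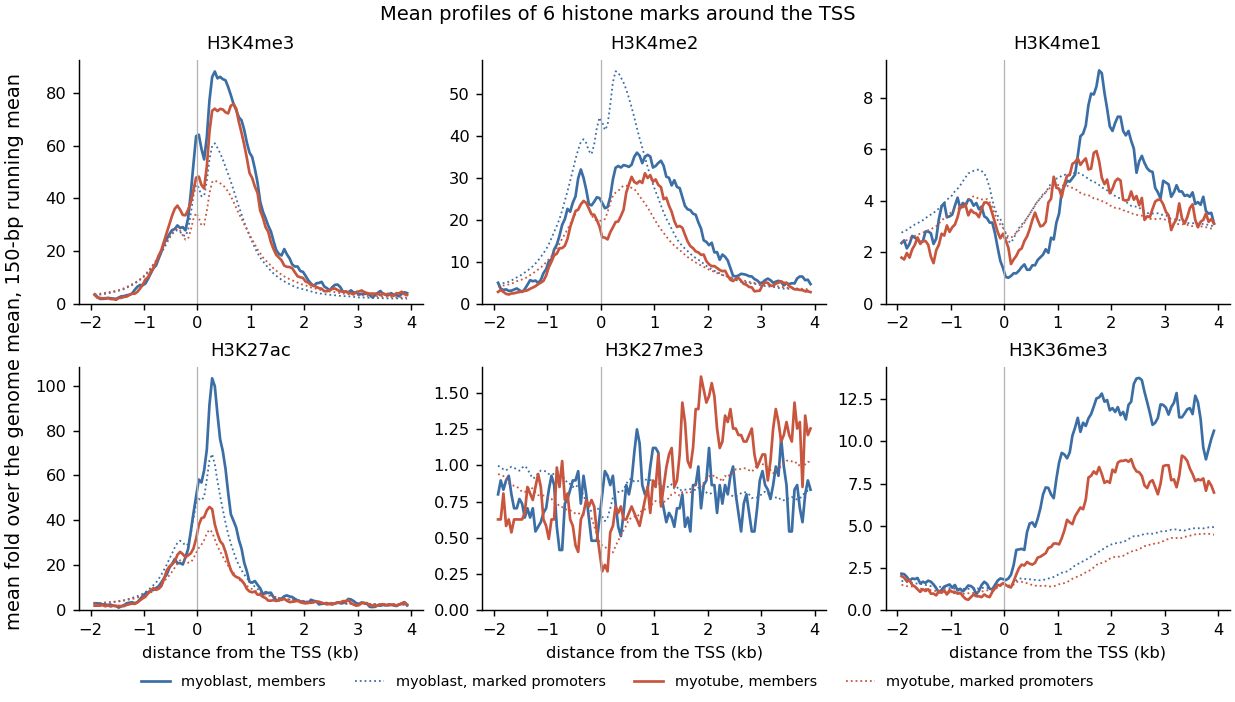
Mean fold over the genome mean (vertical axis, 150-bp running mean) by distance from the TSS in kb in the direction of transcription, for 6 marks, with solid lines for the 76 ribosomal protein genes, dotted lines for the promoters with an H3K4me3 peak in both states, blue for myoblasts and red for myotubes. The members' H3K4me3 peaks past the TSS at 88.2-fold in myoblasts, H3K4me1 dips there and peaks at 1775 bp, and H3K36me3 climbs within the first 2 kb, higher in myoblasts than in myotubes.

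H3K36me3 was already high within the first 2 kb of these short genes. In myoblasts the mean over the members was 1.53-fold in the 500 bp before the TSS, 3.29-fold in the first 500 bp after it, 10.0-fold from 1000 to 1500 bp and 12.2-fold from 1500 to 2000 bp. In myotubes the same windows had 1.11-fold, 2.17-fold, 5.14-fold and 7.90-fold. The mark went on past the annotated gene end, with 12.4-fold in myoblasts and 8.12-fold in myotubes between 500 and 1000 bp beyond it. Already within 1 kb of the TSS the median was 2.73-fold in myoblasts and 1.63-fold in myotubes, against 1.27-fold and 1.19-fold at promoters with an H3K4me3 peak. Relative to the reads of the 200 kb around each TSS, the members' medians in that window were 1.25-fold and 0.727-fold. In that window 53 and 22 members lay above the mean, against 13.2% and 11.5% of all genes, and 34 and 13 had a deposited H3K36me3 peak, against 3.41% and 3.96%. Rpl8 was highest there in both states, with 48 and 19 reads (8.72-fold and 5.63-fold), whereas the lowest were Rps7 in myoblasts with 3 reads (0.545-fold) and Rpl13a and Rpl26 in myotubes with 1 read each (0.296-fold).

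Of the members, 71 had a body of at least 500 bp, and Rpl36, Rplp1, Rps21, Rps27 and Rps29 did not. The median body level of H3K36me3 was 11.2-fold in myoblasts (10.1 to 12.8) and 6.55-fold in myotubes (5.53 to 8.10). Set against the 200 kb around the TSS these were 4.96-fold and 2.58-fold, and without Rpl24, which had 3.92-fold and 3.46-fold, they were 11.3-fold and 6.68-fold. Genes with an H3K4me3 peak in both states had 4.71-fold and 4.36-fold, mitochondrial ribosomal protein genes 5.80-fold and 5.77-fold, and proteasome genes 6.26-fold and 5.13-fold. The interval was above the mean in 70 of 71 members in myoblasts and 63 in myotubes, against 53.6% and 53.8% of all genes. This was not particular to the members. It held in 90.6% and 87.0% of genes with an H3K4me3 peak, and in 70 and 68 of 71 mitochondrial ribosomal protein genes. Rpl3, whose product lies at the peptidyl transferase centre, was highest in myoblasts, with 326 reads over 4625 bp (25.6-fold, 22.9 to 28.6), and had 113 reads in myotubes (14.5-fold, 11.9 to 17.4). Next to it was Rpl8 with 80 reads (23.3-fold, 18.5 to 29.0), which overlaps the interval of Rpl3. The lowest in myoblasts was Rps23, with 3 reads over a body of 551 bp (1.98-fold, 0.408 to 5.79), which is too few to place it. The lowest in myotubes was Rpl36a, with 0 reads where myoblasts had 20 (5.19-fold), and 0 reads over its 1402 bp allow up to 1.56-fold.

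Many 34-base words of these genes' exons occur more than once in the genome, and reads of such words have no unique place. Among 34-base words wholly inside exons 57.4% occurred once, with under 50% in 44 members, whereas 96.0% of those in introns did. Counted per unique position, H3K36me3 was 7.98-fold in exons and 10.4-fold in introns in myoblasts, and 4.91-fold and 6.60-fold in myotubes. Uniqueness was judged on exact matches only, so words that nearly match a copy elsewhere still count as unique. The lower exon values therefore need not mean less of the mark in exons. The TSS windows were less affected, with a median of 92.4% of positions unique and a minimum of 63.7% at Rps2. The 55 genes annotated as protein-coding with -ps names, all single-exon copies, had a median H3K4me3 of 0.461-fold in myoblasts and 0.388-fold in myotubes, with 74.1% of positions unique.

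The change from myoblasts to myotubes was measured as the ratio of the 2 libraries of a mark, with the median of all features with a combined count of at least 30 reads set to 1, and a member was called when its ratio was at least 2-fold from 1. Whether fewer cells carried a mark or each carried less of it cannot be told apart in bulk samples. For H3K4me3 the 76 members had a median ratio of 1.05 (0.991 to 1.12) and none was called, where 3.74% of all promoters were called higher and 4.04% lower. The ratios ran from 0.559 at Rpl13a, with 27 and 15 reads, to 1.54 at Rpl10 (1.17 to 2.06), with 84 and 133 reads. H3K27ac had a median ratio of 1.01 (0.924 to 1.09) over 75 members, 3 called higher and 1 lower, against 14.3% and 12.6% of all promoters. The 3 were Rps2 (20 and 100 reads, ratio 3.31, 2.12 to 5.88), the member with the least uniquely alignable TSS window, Rpl27 (27 and 84 reads, ratio 2.09) and Rpl10 (54 and 160 reads, ratio 2.02). The 1 called lower was Rps13, with 47 and 29 reads (ratio 0.431, 0.258 to 0.690). Scaled by total reads, the H3K27ac median was 0.577, with 23 members called lower and 0 higher, and the median of all promoters on that scale was 0.571. The share of all promoters called on that scale was not counted, so these calls have no share to be set against.

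For H3K4me2 the members stood above the median promoter. The median ratio was 1.43 (1.32 to 1.48) over 76 members, 67 of them above 1, and 10 were called higher and 0 lower, against 7.79% and 8.61% of all promoters. On total reads the direction was the opposite, a median of 0.846 with 0 members called higher and 4 lower, where the median promoter stood at 0.590. Here too the share of all promoters called on that scale was not counted. Centred medians were also above 1 for the proteasome genes (1.54) and the mitochondrial ribosomal protein genes (1.27), and promoters with an H3K4me3 peak as a whole stood at 1.05. The largest ratio was at Rps3, with 33 and 63 reads (ratio 2.88, 1.89 to 4.59), and the smallest at Rpl36, with 134 and 52 reads (ratio 0.6002, 0.422 to 0.823). H3K4me1 had enough reads in 24 members, with a median of 1.51 (1.19 to 1.76), 6 called higher and 0 lower, against 11.7% and 12.2%. Within 500 bp of the TSS the H3K4me1 median was 0.898 with 0 members called higher, the opposite direction. The extremes were Rps27a, with 8 and 24 reads (ratio 3.56), and Rpl13a, with 37 and 17 reads (ratio 0.606). No member had enough H3K27me3 reads at the TSS for a ratio.

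**Figure D3:**
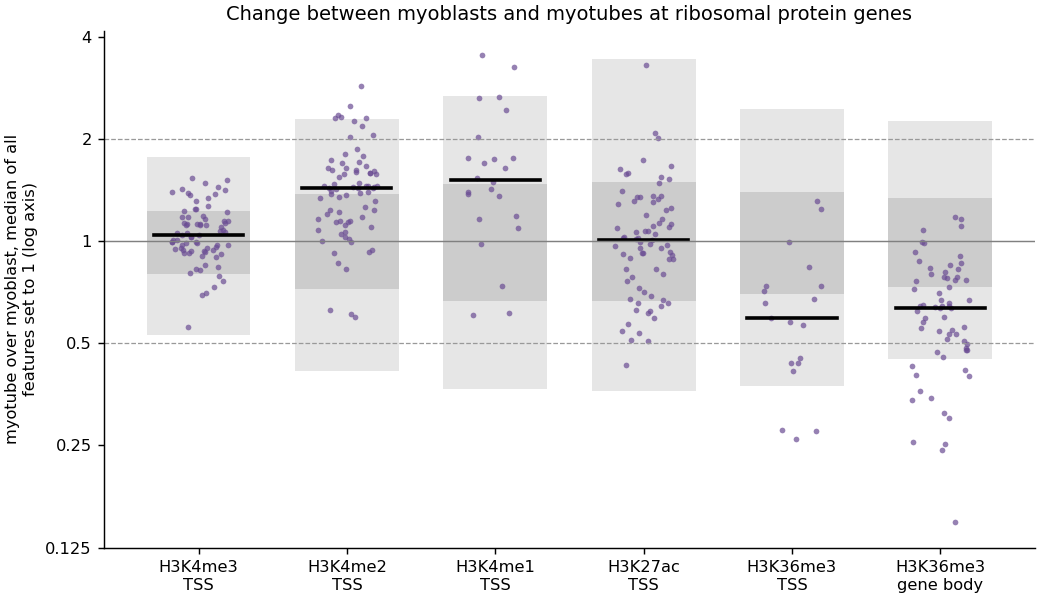
Each point is 1 ribosomal protein gene with a combined count of at least 30 reads, placed by its myotube over myoblast ratio on a log axis with the median of all features set to 1; black bars are the members' medians, dark and light grey boxes hold the interquartile range and the 5th to 95th percentiles of all features, and dashed lines mark 2-fold. H3K4me3 and H3K27ac medians sit at 1.05 and 1.01, H3K4me2 at 1.43 and H3K36me3 over gene bodies at 0.635.

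With the median gene body set to 1, the members' H3K36me3 over the bodies was lower in myotubes. Over the 65 members with enough reads the median ratio was 0.635 (0.547 to 0.673), with 4 members above 1. At least 2-fold lower were 19 members (29.2%), 11 of the large and 8 of the small subunit, against 7.11% of all gene bodies, and 0 were at least 2-fold higher, against 7.09%. The counting interval lay wholly below 1 in 37 members and wholly above it in 0, against 4251 and 4044 of 14616 gene bodies. Scaled by total reads the median was 0.648, so both scalings gave nearly the same value, and without Rpl24 the median was 0.635 with 19 called lower. Over the members' bodies H3K4me3 also had a lower median on the genome-mean scale, going from 12.3-fold to 9.79-fold. So did H3K4me2 (12.2-fold to 9.13-fold), H3K4me1 (5.16-fold to 3.92-fold) and H3K27ac (3.61-fold to 2.42-fold), marks for which no body ratio was taken. These folds are not centred as the ratios are. On total reads the median promoter also stood below 1, at 0.860 for H3K4me3, 0.590 for H3K4me2, 0.807 for H3K4me1 and 0.571 for H3K27ac. H3K27me3 went from 0.711-fold to 1.10-fold, with a median of 5 reads per body in each library. It rose alike over all gene bodies, from 0.764-fold to 1.07-fold, and over those of mitochondrial ribosomal protein genes, from 0.594-fold to 1.09-fold. Over the bodies of genes with an H3K4me3 peak in both states, H3K4me3 went from 1.25-fold to 1.31-fold and H3K4me2 from 1.39-fold to 1.77-fold. Their H3K4me1 went from 1.58-fold to 1.74-fold, and their H3K27ac from 1.25-fold to 1.12-fold. The bodies of the 2 sets are unlike windows. The median transcript of these genes spanned 21411 bp against 3050 bp for the members, whose bodies lie mostly close to the TSS. The myotube H3K36me3 library was shallower than that of myoblasts, with 4312764 reads against 7033100. The genes of myoblasts and the cell cycle were lower in the same libraries, 5 of the 6 with enough reads being called lower over the body with a median ratio of 0.102, and their part in the result was not tested. The 2 subunits had like medians, 0.643 (0.533 to 0.735) and 0.617 (0.499 to 0.784). Mitochondrial ribosomal protein genes had a median of 1.05 (0.959 to 1.13) with 1 of 70 called lower, and proteasome genes 0.777 (0.710 to 1.06) with 3 of 36 called lower. These values come from 1 library against 1 library and no test of the difference between the sets was possible.

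The largest H3K36me3 fall was at Rpl39, a small large-subunit protein of the exit tunnel, from 42 reads in myoblasts to 3 in myotubes (ratio 0.149, 0.0226 to 0.357). Rps20 went from 78 to 11 reads (ratio 0.243, 0.108 to 0.426), Rpl15 from 37 to 5 (ratio 0.252), and Rpl30 from 49 to 7 (ratio 0.256). Rps6, the substrate of the S6 kinases, went from 52 to 9 reads (ratio 0.302, 0.1198 to 0.566). Their myotube counts are small, and the intervals correspondingly wide. Rpl5 and Rpl11, which bind MDM2 when ribosome assembly is disturbed, went from 225 to 56 reads (ratio 0.403, 0.291 to 0.535) and from 17.1-fold to 12.5-fold (ratio 0.723). Rps14 and Rps19, genes affected in inherited or acquired anaemias, went from 85 to 25 reads (ratio 0.483, 0.288 to 0.742) and from 119 to 60 reads (ratio 0.812). Rpsa, which doubles as the laminin receptor, went from 151 to 63 (ratio 0.673), Rplp0 from 112 to 51 (ratio 0.735) and Rpl17 from 55 to 22 (ratio 0.656). At the TSS window 19 members had enough H3K36me3 reads, with a median ratio of 0.595 (0.438 to 0.737). Of these, 7 were called lower and 0 higher, against 10.8% and 9.26% of all promoters. Over all 76 members the median count in this window was 15 reads in myoblasts and 5.5 in myotubes. The read minimum, set on both libraries together, therefore favours members with many myoblast reads, which can lower the ratio of those kept. The 19 need not stand for the other members. The 423 promoters with an H3K4me3 peak and enough reads had a median of 0.804 with 18.2% called lower, and 3 of 4 mitochondrial ribosomal protein genes were called lower. Centred on promoters with an H3K4me3 peak, the members' median was 0.741 with 3 called lower, and the share of all promoters called on that centring was not counted. Rpl36, with 21 and 17 reads, had the highest ratio there (1.31).

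**Figure D4:**
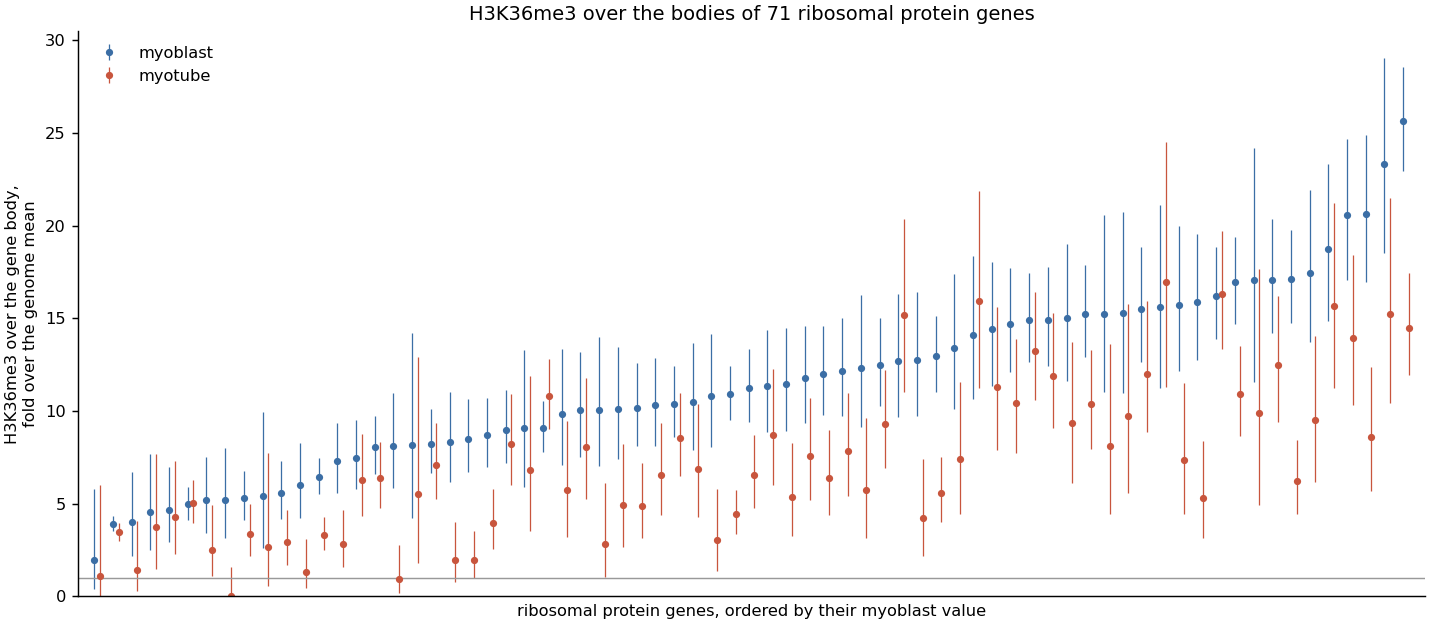
H3K36me3 over the gene body as a fold over the genome mean (vertical axis) for the 71 ribosomal protein genes with a body, ordered by their myoblast value, in myoblasts (blue) and myotubes (red) with 95% Poisson intervals as bars and the genome mean as a grey line. In 65 of the 71 genes the myoblast fold is the higher one, from Rps23 at 1.98-fold to Rpl3 at 25.6-fold in myoblasts.

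The H3K36me3 ratio was set beside other properties of the members. Across 65 members its Spearman rho was 0.106 with body length, 0.038 with the myoblast level and 0.138 with the share of the body that is uniquely alignable, and it was -0.158 with the H3K4me3 ratio and 0.154 (64 members) with the H3K27ac ratio. These are descriptions over genes of the same 2 libraries. Hosts of snoRNAs had a median ratio of 0.602 and the other members 0.639, and members with and without the ETS word 0.651 and 0.597.

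The 4 members on chromosome X had other medians than the 72 on autosomes in several marks at once, but single genes did not always follow. Rpl10 had 133 H3K4me3 reads in myotubes, where the median of all 76 members was 107. Its H3K27ac reads were 54 in myoblasts and 160 in myotubes, where the medians of all members were 49 and 70.5. Rpl10, Rpl36a, Rpl39 and Rps4x had a median H3K4me3 of 30.4-fold in myoblasts and 32.0-fold in myotubes, against 47.2-fold and 42.1-fold for the autosomal members. Their H3K4me2 was 15.2-fold and 11.6-fold, against 25.6-fold and 20.6-fold. For H3K27me3 their values ran from 1.09-fold to 2.73-fold in myoblasts and from 1.27-fold to 2.04-fold in myotubes, against autosomal medians of 0.729-fold and 0.510-fold. Body H3K36me3 had medians of 5.39-fold and 1.17-fold in them, against 11.5-fold and 6.85-fold on autosomes. Promoters of other genes with an H3K4me3 peak differed the same way, 272 on chromosome X having a median H3K4me3 of 18.9-fold and 9689 on autosomes 32.7-fold in myoblasts, with H3K27me3 of 1.28-fold and 0.729-fold. Over the whole of chromosome X, reads per base were 0.485 of the genome mean for H3K4me3 and 0.235 for H3K4me2 in myoblasts, and 0.864 for H3K27me3. Chromosome copy number and the level of a mark per copy cannot be told apart without an input library, and the 4 genes share 1 chromosome.

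**Figure D5:**
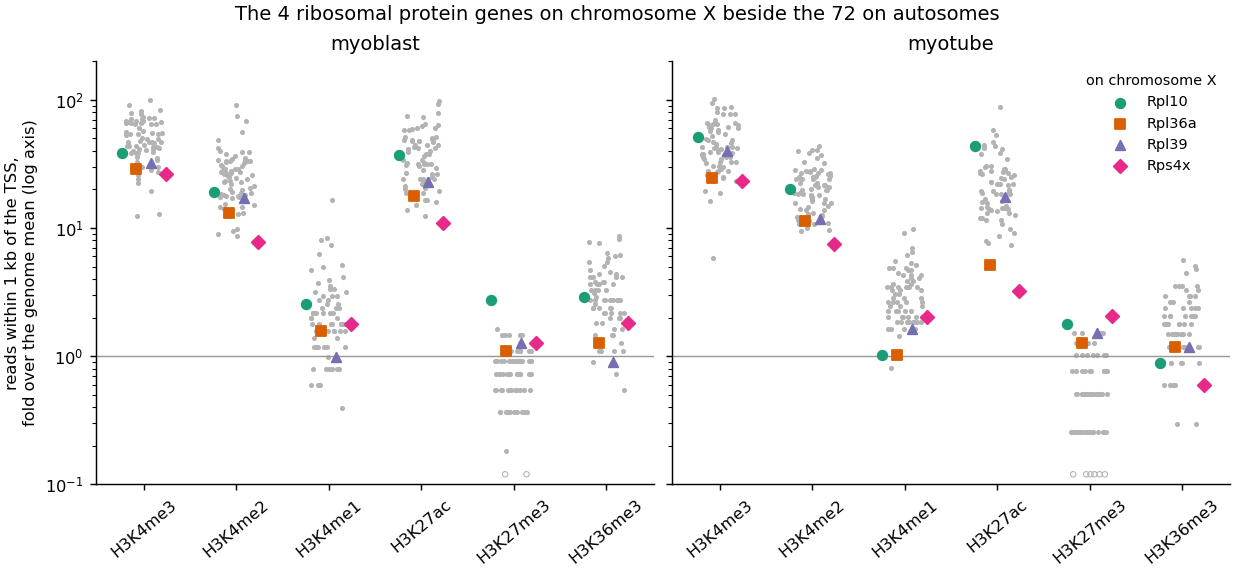
Reads within 1 kb of the TSS as a fold over the genome mean (log axis) for 6 marks in myoblasts (left) and myotubes (right), with the 72 autosomal ribosomal protein genes in grey, the 4 on chromosome X as coloured symbols, and open points at the bottom edge for 0 reads. Rpl10, Rpl36a, Rpl39 and Rps4x lie between 1.09 and 2.73 for H3K27me3 in myoblasts, above the autosomal median of 0.729, and Rps4x lies lowest for H3K4me2 and H3K27ac.

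The paralogs outside the rule split into genes with and without an active promoter. Of 9 listed, 7 were in the annotation. Rpl3l, the striated-muscle paralog of Rpl3, had 1 H3K4me3 read in each state where Rpl3 had 177 and 244, and its body H3K36me3 was 1.14-fold and 1.70-fold (23 and 21 reads). Rpl10l and Rpl39l, known from testis, had at most 2 H3K4me3 reads in either state. Rpl7l1 (100 and 173 H3K4me3 reads), Rpl22l1 (77 and 85), Rpl36al (57.6-fold and 41.9-fold) and Rps27l (75 and 75) had levels like those of the members, between 29.1-fold and 67.1-fold. None of the 4 was called for H3K4me3, and over the bodies Rps27l, with 25 and 5 reads, was called lower for H3K36me3 (ratio 0.369). Fau and Gnb2l1, ribosomal proteins whose symbols fall outside the rule, had H3K4me3 of 68.7-fold and 54.3-fold and of 96.8-fold and 84.9-fold, and Gnb2l1 had an H3K36me3 body ratio of 0.508.

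Among 9 translation factors and other genes with pyrimidine-tract mRNAs, 8 had enough reads and 0 were called for H3K4me3 in either direction. Over the bodies 2 of 8 were called lower for H3K36me3 and 0 higher, where 7.11% and 7.09% of all bodies were, with a median ratio of 0.623: Pabpc1, the poly(A)-binding protein, from 373 to 89 reads (ratio 0.385), and Tpt1, from 152 to 37 (ratio 0.397). Eef2, the translocation factor, went from 512 to 377 reads (ratio 1.18). Eef1a1, the elongation factor of proliferating cells, had 114 and 110 H3K4me3 reads and 1 and 0 H3K27me3 reads, whereas Eef1a2, its counterpart in muscle and neurons, had 4 and 2 H3K4me3 reads and 35 and 12 H3K27me3 reads (6.38-fold and 3.06-fold). Of 9 genes of ribosome assembly and RNA polymerase I, 1 was called lower over the body, the nucleolar chaperone Npm1, from 207 to 39 reads (ratio 0.307), and the median was 0.968. For H3K27ac 3 of 8 were called higher and 2 lower, where 14.3% and 12.6% of all promoters were, the 2 being Npm1 (51 and 27 reads, ratio 0.371) and Ncl (211 and 143 reads, ratio 0.468). Of 5 regulators, 3 were called higher for H3K27ac, namely Myc (82 and 278 reads, ratio 2.32), Mdm2 (56 and 248 reads, ratio 3.01) and Mtor (19 and 76 reads, ratio 2.65), and 0 were called for H3K4me3 or for H3K36me3 over the body. These higher calls rest on the centring, since on total reads the H3K27ac ratios were 1.32 for Myc, 1.72 for Mdm2 and 1.51 for Mtor, under 2-fold, and those of the 3 genes of ribosome assembly called higher were 1.20 for Nop58, 1.40 for Polr1a and 1.15 for Ubtf. The lists were compiled with results of these data known, so they describe the genes and support no direction.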

How the data were processed

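The 12 deposited libraries were used, 6 marks in 2 cell states. The authors aligned 34-base reads to mm9 with Mosaik, kept unique alignments (stated for the myoblast libraries) and deposited the reads as positions, here turned into counts, and the peaks of each library as positions with a MACS score. No input control was used here. The NCBIM37 genome and GENCODE annotation given for this work matched the mm9 chromosome lengths, except that 3 reads ran past a chromosome end. The TSS was the start of the protein-coding transcript with the longest coding sequence. Reads on chromosomes 1 to 19 and X were extended to 150 bp and counted at their midpoint. Each count was divided by the library mean per non-N base. Ratios added 1 read to each count, needed 30 reads in both libraries together and were centred on the median of all such features, and 2-fold was the call. Poisson, conditional binomial and order-statistic intervals are at 95% and cover counting error only, since PCR copies cannot be told from separate molecules. Between 0.417% and 3.14% of reads shared a position and strand. Unique alignability was the share of 34-base words that occur once in the genome. Samples were grouped by the mark and cell named in their labels, and libraries of 1 sample a group allow no test. The genes named are the members highest and lowest in each library, those with the largest rise and fall per mark, those with H3K27me3 above the mean, and fixed lists, of which some genes are not reported here. Members and lists were chosen with earlier results of these data known. The scripts were tested on simulated data. Python 3.11.15, numpy, pandas, scipy and matplotlib were used.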

Additional observations from a re-analysis of the deposited data

How the results depend on the processing

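Most medians and counts over the members kept their size under the alternatives, 261 of them against 51 that moved and 2 that reversed. Several alternatives could hardly move a value, such as leaving out Rpl24 alone or keeping 1 read per position. The tally therefore does not measure how robust the results are. Scaled by total reads in place of the median feature, the H3K4me2 ratio reversed to 0.846 with 0 members called higher and 4 lower, H3K4me3 gave 0.899 with 1 lower, H3K4me1 had 2 lower, and H3K27ac gave 0.577 with 0 higher and 23 lower. Shares of all promoters called on total reads were not counted, so these counts have no share beside them. With a window of 500 bp either side of the TSS, the H3K4me1 ratio reversed to 0.898 with 0 called higher, the H3K27ac levels were 48.8-fold in myoblasts and 27.6-fold in myotubes with 5 members called higher and 2 lower, the myoblast levels of H3K4me1 and H3K36me3 were 1.58-fold and 2.18-fold, and 1 member was called higher for H3K4me3. How many members had enough H3K4me1 reads for a ratio in that window was not counted. Against the reads in the 200 kb around each TSS in place of the genome mean, the TSS levels in myoblasts and myotubes were 24.3-fold and 22.4-fold for H3K4me3, 9.77-fold and 9.67-fold for H3K4me2, 1.01-fold and 1.67-fold for H3K4me1, 16.6-fold and 11.2-fold for H3K27ac, and 1.25-fold and 0.727-fold for H3K36me3, with 0.464-fold for H3K27me3 in myotubes and 4.96-fold and 2.58-fold for H3K36me3 over the body. With a minimum of 10 reads, 22 members of 75 were called higher and 1 lower for H3K4me1, against 14.3% and 14.4% of all promoters, and 21 of 70 lower for H3K36me3 at the TSS, against 13.2%. With 5 reads added, 1 was called higher for H3K27ac and 4 lower for H3K36me3 at the TSS. Centring on promoters with an H3K4me3 peak gave an H3K36me3 TSS ratio of 0.741 with 3 called lower. At the annotated start with the most H3K4me3, 2 members were called lower for H3K27ac and 12 for H3K36me3. A peak over the TSS itself was found in 47 members for H3K4me2 in myotubes, in 3 and 0 for H3K4me1 and in 0 and 0 for H3K36me3, and a score of at least 100 left 16 and 0 for H3K4me1. Shares of all genes were not counted for these 2 peak settings. Nor were they counted for the calls with the 500 bp window, 5 added reads, the other centring or the other start. Exchanging the myoblast peak lists gave 76 members for H3K27ac and 0 for H3K27me3. Corrected for unique alignability, H3K4me2 was 27.7-fold and body H3K36me3 13.1-fold in myoblasts, and over the whole gene H3K36me3 was 9.03-fold and 5.51-fold. Apart from the changes that a window, a minimum or an added read makes by construction, the cause was not tested.

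The lower H3K36me3 over the bodies kept its direction under each scaling run. Of the alternatives chosen after seeing the data, leaving out the members on chromosome X gave a ratio of 0.639 with 18 called lower, and centring on 938 other bodies of 500 to 5000 bp with at least 5 times the mean level gave 0.596 with 23 called lower. The share of all bodies called on that last centring was not counted. Leaving out Rpl24 moved no median beyond its interval and ended no call of a named member. Moving the 3 distant starts gave an H3K4me3 median of 48.6-fold in myoblasts and 42.8-fold in myotubes. No paired analysis was possible because each group holds 1 library and the labels give no replicate numbers. Depth limits the H3K27me3 values, where the mean gives 3.92 to 5.49 reads per window, and body counts under about 10 reads in myotubes.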

Other observations

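The 11 members with the start of another gene within 1 kb, among them Rpl12, Rps18 and Rpl9, had a median H3K4me3 of 67.8-fold in myoblasts and 66.3-fold in myotubes, against 44.7-fold and 39.5-fold in the other 65, and the window then holds reads of both promoters. The order of the members by H3K4me3 was much alike in the 2 states, with a Spearman rho of 0.891 over 76 genes, whereas that of H3K27me3, where most counts are a few reads, had 0.211. H3K4me3 at the TSS and H3K36me3 over the body had a rho of 0.669 over 71 members in myoblasts and 0.242 in myotubes, where the body counts are lower. Members that host snoRNAs and members that do not had median H3K36me3 body levels of 11.4-fold and 10.4-fold in myoblasts. The bodies of other genes between 500 and 5000 bp with at least 5 times the mean H3K36me3 level had a median ratio of 1.07 (1.03 to 1.09), with 7.68% at least 2-fold lower in myotubes, against 0.635 and 29.2% in the ribosomal protein genes. The latter values cover all 65 members with enough reads, of which 54 meet the same limits of length and level.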
